A study of Mus musculus with 66 samples.

Results

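The genes described here are 9 that mark the thalamus and the habenula, the structures that lie directly beneath the hippocampus: Tcf7l2, Lef1, Prkcd, Tnnt1, Ramp3, Rgs16, Zic1, Slc17a6 and Pou4f1. They were chosen by name, with earlier results of these data known, and all 9 were found among the 55421 genes of each deposited table. They are read here as a sign of how much neighbouring tissue each hippocampal sample held. The study sequenced poly(A) RNA of the hippocampus of C57BL/6 mice, an inbred laboratory strain, that had been injected with extract of Alzheimer's disease brain (AD) or of control brain (Ctrl). Mice are labelled 3 or 12 months old and were taken 1, 3 or 5 months post injection (mpi). All groups carry an injection of brain extract, so none is uninjected. Of the 29 libraries from mice labelled 3 months old, those given Ctrl extract number 5 at each time, and those given AD extract number 6 at 1 mpi, 5 at 3 mpi and 3 at 5 mpi. Of the 37 from mice labelled 12 months old, Ctrl libraries number 5, 6 and 7 at the successive times and AD libraries 6, 6 and 7. The 66 libraries held 42462638 to 65907005 reads assigned to genes. Whether the age is that at injection or at collection is not labelled. Nor do labels tie libraries to separate mice, so p-values here measure the spread between libraries, which may be technical.

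The thalamus relays signals to the cortex through excitatory neurons that load glutamate with the vesicular transporter VGLUT2, the product of Slc17a6, whereas the excitatory neurons of the hippocampus rely mainly on VGLUT1. Tcf7l2 and Lef1 encode transcription factors of the TCF/LEF family, which act with beta-catenin at the end of the canonical Wnt pathway, and Tcf7l2 stays high in thalamic neurons of the adult brain. Zic1 encodes a zinc finger transcription factor of the thalamus, septum and other midline regions. Pou4f1 encodes a POU homeodomain factor, also called Brn3a, that defines habenular neurons. Among the effector genes, Prkcd encodes protein kinase C delta, Ramp3 a partner of calcitonin-family receptors, Rgs16 a protein that shortens G protein signalling, and Tnnt1 a troponin T of slow muscle that is also transcribed in the thalamus. In bulk RNA, fewer cells of a type and less RNA per cell cannot be told apart. On GRCm38 the factor genes lie at chr19:55741820-55933654 (Tcf7l2), chr3:131110471-131224356 (Lef1), chr9:91358058-91365810 (Zic1) and chr14:104461676-104467999 (Pou4f1). Prkcd lies at chr14:30595354-30626210, Tnnt1 at chr7:4504570-4516382, Ramp3 at chr11:6658521-6677475, Rgs16 at chr1:153740349-153745468 and Slc17a6 at chr7:51622006-51671119. All 9 are annotated as protein-coding.

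TCF/LEF proteins bind a core that reads CTTTGA, or TCAAAG on the other strand, and this core was searched on both strands in the 250 bases before each transcript start in RefSeq on GRCm38.p6. All 9 genes had such windows, 15 in total. The core stood in 2 of the 15 windows (13.3%), and in 13.8% of all 32851 windows of the same length, so the share of the members' windows lay near that of all windows. The windows with the core belonged to Prkcd and to an internal start of Lef1. The first start of Tcf7l2 is shown beside them, since Tcf7l2 and Lef1 encode factors of the family that reads the core. The first 240 bases of each window follow 5′ to 3′, with the core in capitals. A match is a description of these letters and not a binding site.
Prkcd at chr14:30626219-30626458, minus strand: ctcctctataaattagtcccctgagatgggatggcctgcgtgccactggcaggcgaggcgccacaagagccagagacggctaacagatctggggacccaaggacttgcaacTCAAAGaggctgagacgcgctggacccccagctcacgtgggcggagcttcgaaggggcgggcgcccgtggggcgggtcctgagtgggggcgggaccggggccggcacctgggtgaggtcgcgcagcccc
Lef1 at chr3:131156044-131156283, plus strand: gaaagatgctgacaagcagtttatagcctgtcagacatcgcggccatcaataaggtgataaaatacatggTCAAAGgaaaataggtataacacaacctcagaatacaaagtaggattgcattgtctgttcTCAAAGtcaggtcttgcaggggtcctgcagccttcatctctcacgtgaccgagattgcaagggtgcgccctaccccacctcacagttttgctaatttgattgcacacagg
Tcf7l2 at chr19:55741560-55741799, plus strand: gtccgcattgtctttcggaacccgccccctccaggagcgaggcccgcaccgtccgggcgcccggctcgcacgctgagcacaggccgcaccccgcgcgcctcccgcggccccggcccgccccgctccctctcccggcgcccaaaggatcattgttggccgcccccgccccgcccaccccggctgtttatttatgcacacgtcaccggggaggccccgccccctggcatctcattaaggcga
The Prkcd window held the core once, 139 bases before the start, and the Lef1 window held it at 180 and 120 bases before its start. The Tcf7l2 window held none.

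Hippocampal neuron genes were high in every library. The summed level of 16 genes of the dentate gyrus and CA fields ran from 1452 to 2043 scaled RPM in the 3-month cohort and from 1400 to 2026 in the 12-month cohort. Scaled RPM, the unit as deposited, are the reads of a gene after each library is brought to a common total, and every level that follows is in it unless a log2 scale is named. The sum of 17 choroid plexus genes, which mark another neighbour of the hippocampus, ran from 71.7 to 8382 at 3 months and from 133 to 10892 at 12 months, so transcripts of adjoining tissue differed widely between libraries. In the 3-month cohort, 2 libraries stood apart in thalamus genes and 2 others in Pou4f1, and in the 12-month cohort 1 library was the highest in 4 members. They are called the thalamus-high pair (library 1 of AD at 1 mpi and library 4 of Ctrl at 5 mpi) and the habenula-high pair (libraries 1 and 4 of Ctrl at 1 mpi) of the 3-month cohort, and library 4 of AD at 1 mpi of the 12-month cohort. These values singled them out, so what follows about them is a description.

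Per kilobase of annotated exon, the median level over the 3-month libraries was highest for Zic1 (6.50), then Prkcd (5.71) and Slc17a6 (5.70), followed by Rgs16 (3.83) and Ramp3 (2.34). Lef1 (0.721), Tcf7l2 (0.711) and Tnnt1 (0.606) came next and lay close together. Pou4f1 was lowest at 0.0306 per kilobase. The 12-month medians put Slc17a6 first (5.91) and Pou4f1 last (0.0258).

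Tcf7l2 had the largest residual SD of log2 values among the 9 members in the 3-month cohort. At 1 mpi the Ctrl libraries held 12.8, 5.70, 4.26, 18.4 and 6.76, and the 6 AD libraries had a lowest, median and highest level of 3.51, 5.49 and 51.0. The Ctrl libraries at 5 mpi held 7.14, 4.68, 7.94, 49.8 and 5.68, and the AD libraries 4.62, 18.0 and 6.24. Library 1 of AD at 1 mpi and library 4 of Ctrl at 5 mpi were therefore far above the rest. The next library, at 18.7, was library 2 of AD at 3 mpi, and the median of the cohort was 6.24. At 3 mpi the Ctrl libraries held 8.86, 5.68, 5.23, 4.52 and 5.80, and the AD libraries 6.69, 18.7, 6.22, 5.95 and 15.8. The high libraries came from both extracts and from different times, and the groups overlapped at every time.

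The same pair of libraries led most other members. Ramp3 stood at 21.9 and 21.3 in them against a next level of 7.85 and a median of 3.24. Tnnt1 stood at 15.7 and 13.8 against 6.89 and 1.34, and Prkcd at 146 and 121 against 54.1 and 31.6. Rgs16 reached 34.1 and 32.0, above a next level of 15.8, and Slc17a6 reached 105 and 85.2, above 49.1. Lef1, which vessels also transcribe, stood at 15.1 and 13.9 over a next level of 8.67.

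Ramp3 was high in the same libraries as Tcf7l2. At 1 mpi the Ctrl libraries held 4.87, 2.49, 1.24, 7.77 and 3.00, and the AD libraries a lowest, median and highest level of 1.73, 2.96 and 21.9. At 3 mpi the Ctrl libraries held 4.30, 2.91, 3.08, 2.29 and 3.58, and the AD libraries 3.39, 7.07, 3.50, 2.82 and 7.19. At 5 mpi the Ctrl libraries held 3.24, 2.96, 4.40, 21.3 and 4.26, and the AD libraries 2.75, 7.85 and 3.32. Below the thalamus-high pair came 5 libraries with 4.87 to 7.85, namely library 2 of AD at 5 mpi, libraries 2 and 5 of AD at 3 mpi and the habenula-high pair, which were also the next 5 in Tcf7l2. The groups overlapped at every time.

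Zic1 and Pou4f1 did not follow this pair in full. Zic1 was highest in library 1 of AD at 1 mpi (94.8), but library 4 of Ctrl at 5 mpi (60.7) lay below libraries that were low in Tcf7l2, such as library 4 of AD at 3 mpi (68.6). Pou4f1 was only 0.569 and 0.729 in the pair. Its own highest levels were 6.72 and 4.39, in libraries 4 and 1 of Ctrl at 1 mpi, and the other Ctrl libraries there held 0.0452, 0 and 0.247. The cohort's median was 0.143 and 3 libraries held no read of Pou4f1. The habenula-high pair had Tcf7l2 levels of 18.4 and 12.8, also above the median. Both libraries of the thalamus-high pair exceeded all 27 others in 7 of the 9 members, the exceptions being Zic1 and Pou4f1. Among all 14823 genes with a mean of at least 1, 1.46% did so.

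**Figure D1:**
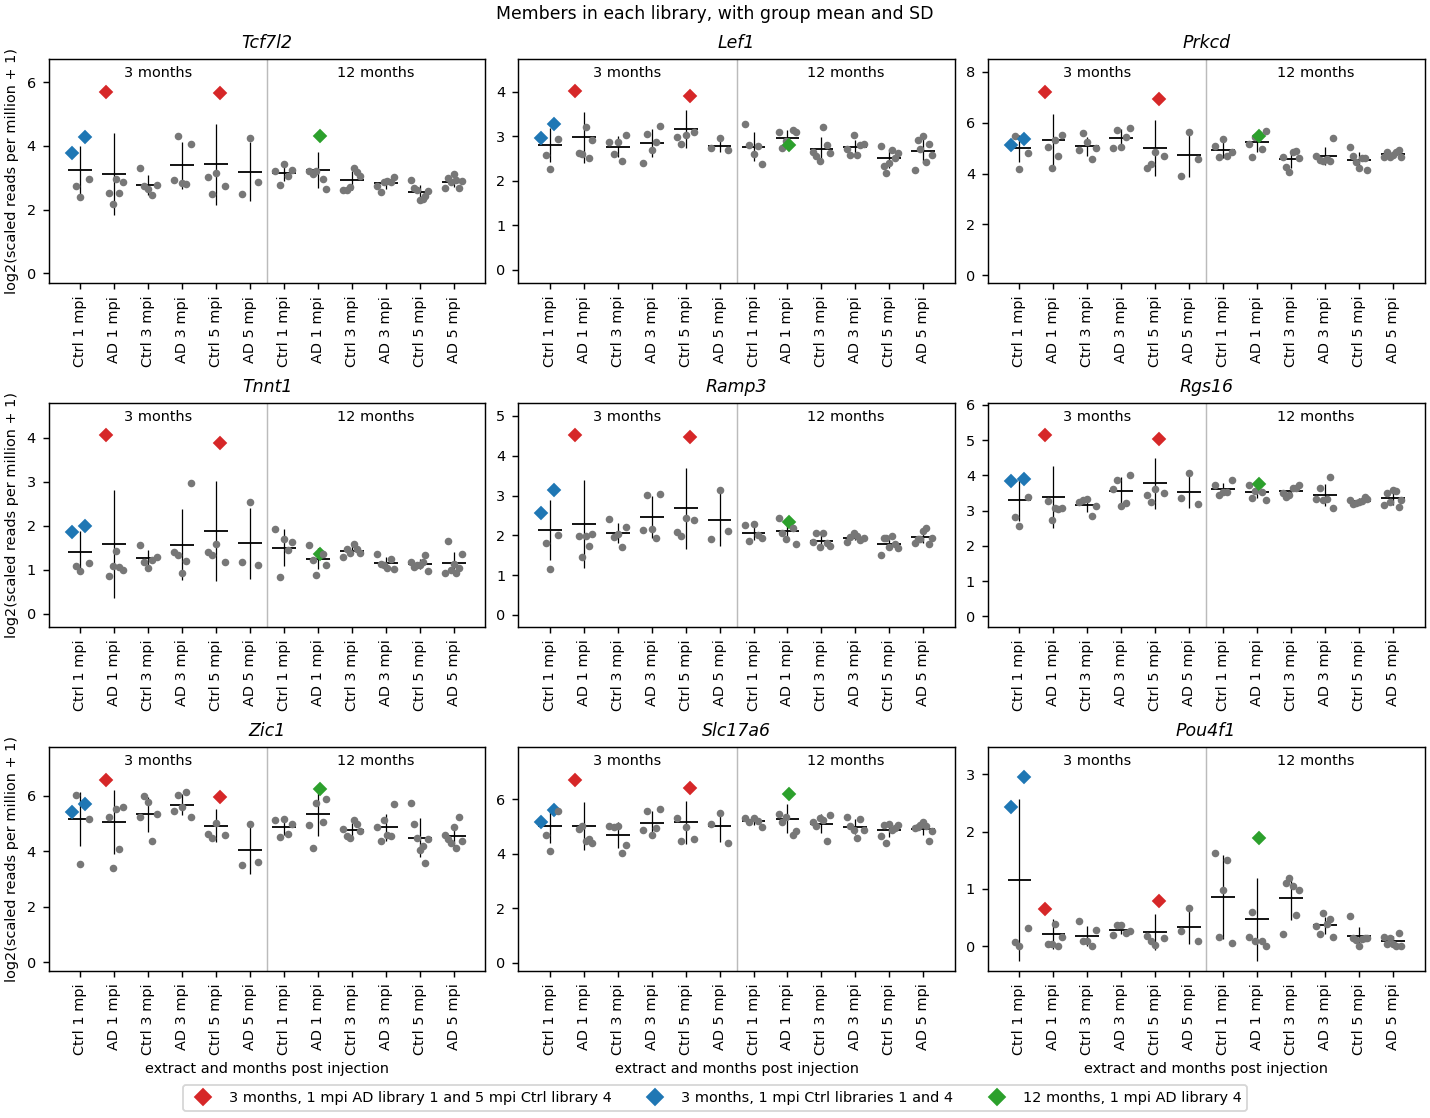
Each panel plots 1 member as log2(scaled RPM + 1) against extract and months post injection (mpi), with 1 point per library and the group mean and SD in black. Red diamonds (the thalamus-high pair) lie above all other 3-month libraries for 7 of the 9 members, blue diamonds (the habenula-high pair) do so for Pou4f1, at 4.39 and 6.72 scaled RPM, and the green diamond is library 4 of AD at 1 mpi of the 12-month cohort.

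Other genes of the same structures were counted in each pair. Of 19 other thalamus genes, 13 were higher in both thalamus-high libraries than in all 27 others, and of 20 other habenula genes 1 was, Chrna6. The 27 include the habenula-high pair. Against the 25 libraries outside both pairs, library 1 of AD at 1 mpi was above all in 15 of 19 thalamus and 8 of 20 habenula genes, and library 4 of Ctrl at 5 mpi in 13 and 5. Rora, a nuclear receptor of thalamic neurons, stood at 142 and 126 over a highest level of 78.1 in the 25 libraries outside both pairs. Synpo2 stood at 49.0 and 36.9 over 22.9, and Plcb4 at 89.9 and 79.4 over 50.4. In the habenula-high pair, 9 of the 20 other habenula genes and 0 of the 19 other thalamus genes were above all 27 others, as were 0.29% of the 14823 genes. Against the 25 libraries, library 4 of Ctrl at 1 mpi was above all in 14 of 20 habenula and 4 of 19 thalamus genes, and library 1 in 13 and 1. Gpr151, a receptor of habenular neurons, stood at 14.3 and 6.66 there over a highest level of 2.14, and Chrna3, a nicotinic acetylcholine receptor subunit, at 7.61 and 4.27 over 1.23. Tac2, which encodes neurokinin B, stood at 7.03 and 6.12 over 3.80. For the counts of single libraries against the 25, the share of all genes was not computed.

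The libraries of the thalamus-high pair differed in genes of other tissues and cell types. The choroid plexus sum was 5467 in library 1 of AD at 1 mpi and 117.6 in library 4 of Ctrl at 5 mpi, against 71.7 to 8382 over the 25 libraries outside both pairs. All 11 genes of myelinating oligodendrocytes were highest of the cohort in library 1 of AD at 1 mpi, whose sum of 8382 compared with 5348 in the other library of the pair. The dentate and CA sum of library 1 of AD at 1 mpi was 1452, below the 1547 to 2043 of the 25 libraries, and that of library 4 of Ctrl at 5 mpi was 1698, inside that range. The part of these differences in the members' levels was not tested.

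The 12-month cohort spread less. Tcf7l2 ran from 3.99 to 9.72 in 36 libraries and reached 18.9 in library 4 of AD at 1 mpi. That library was also highest in Slc17a6 (72.0 over a next level of 43.6), in Zic1 (74.1 over 57.8) and in Pou4f1 (2.69 over 2.08). It was not the highest in the other 5 members, and its Ramp3 of 4.02 lay below the 4.43 of library 1 of AD at 1 mpi. Pou4f1 was at 0 in 4 libraries of the cohort, and the next 7 highest libraries were Ctrl libraries of 1 and 3 mpi. At 1 mpi the Ctrl libraries held 2.08, 0.116, 0.983, 1.84 and 0.0386. The highest 12-month levels of Prkcd and Tnnt1 were 50.1 and 2.81, below the thalamus-high pair of the 3-month cohort. Lef1 ran from 3.51 to 8.58 with a median of 5.54, and Rgs16 from 7.48 to 14.5 with a median of 9.97. At 3 mpi Pou4f1 held 0.159, 0.459, 0.961, 1.07, 1.15 and 1.28 in the Ctrl libraries, given in ascending order, and 0.117, 0.165, 0.272, 0.304, 0.395 and 0.489 in the AD libraries. Of the 6 Ctrl libraries, 2 lay inside the range of the AD libraries and the others above it.

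Within groups the members were among the most variable genes of the 3-month cohort. The residual SD of log2 values, the spread left after the group means are removed, was 0.97 for Tcf7l2, 0.88 for Tnnt1, 0.82 for Zic1 and 0.81 for Ramp3, against a median of 0.13 over all 19976 genes tested. The 9 members lay between the 97.1st and the 99.8th percentile of all genes. These values include the thalamus-high pair, and percentiles without it were not computed. Without the pair, the SD of Tcf7l2 in scaled RPM went from 18.7 to 1.34 in AD at 1 mpi. In Ctrl at 5 mpi it went from 19.5 to 1.46. In the 12-month cohort the members lay between the 62.3rd and the 98.8th percentile. Among genes of like level there, Ramp3 lay at the 9.79th and Tnnt1 at the 51.2nd percentile, and the other 7 members between the 69.4th and the 99.3rd. Zic1 stayed high there, with a residual SD of 0.53, and Pou4f1 followed with 0.43, while Ramp3 at 0.17 was close to the median of 0.15 over all genes.

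**Figure D2:**
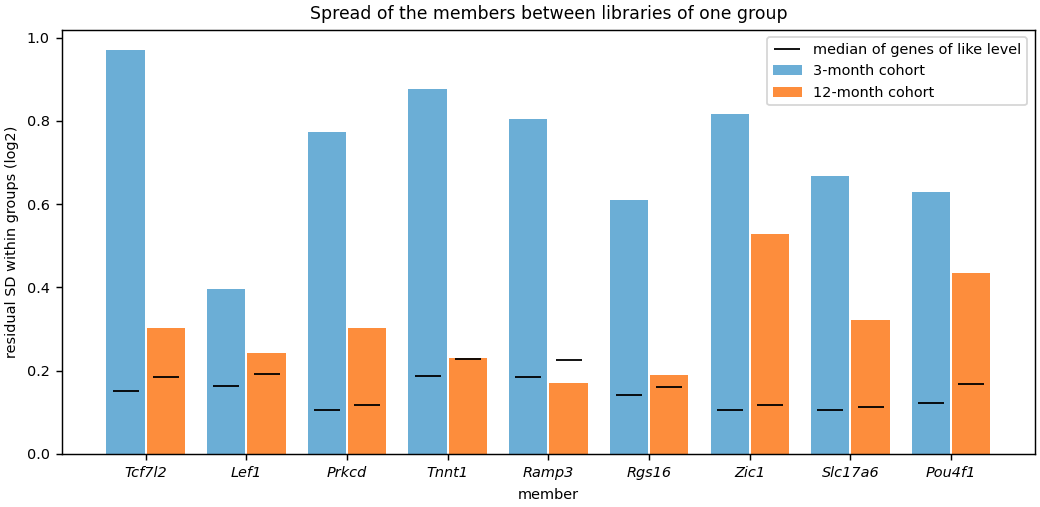
Bars give the residual SD of log2 values within groups (vertical axis) for each member in the 3-month and the 12-month cohort, and black dashes the median of genes whose mean log2 level lies within 0.5 of the member's. Every member's bar is taller at 3 months than at 12 months, and Tcf7l2 has the tallest, at 0.97. The 3-month bars include the thalamus-high pair.

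Levels of the members varied together across the 3-month libraries. Correlations were computed on log2 deviations from group means, with p-values from 100000 permutations within groups, adjusted over the 36 pairs of members by Benjamini-Hochberg. The thalamus-high pair was left out because it forms a cluster of its own. Over the other 27 libraries, 30 of 36 pairs were correlated, all positively, with a median r of 0.62. Leaving out single libraries gave 23 to 32 pairs, and leaving out the habenula-high pair as well gave 26. The share among pairs of other genes was not computed. The closest pair was Tcf7l2 and Ramp3 (r = 0.952, rho = 0.943, permutation p = 0.00001 for both, the smallest these permutations can give, adjusted p = 0.00012 for r and 0.00036 for rho). Without the 2 libraries farthest from the median of Tcf7l2, r was 0.932. Ramp3 and Rgs16 came next (r = 0.896, rho = 0.855, permutation p = 0.00001 and 0.00002, adjusted p = 0.00012 and 0.00036), and r was 0.849 without the 2 libraries farthest from the median of Ramp3.

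In the 12-month cohort 1 of the 36 pairs was correlated over 37 libraries, and the median r was 0.28. This was Prkcd with Zic1 (r = 0.734, rho = 0.694, permutation p = 0.00001 and 0.00002, adjusted p = 0.00036 and 0.00072), with r = 0.656 without the 2 libraries farthest from the median of Prkcd. The same pair had r = 0.858 at 3 months (rho = 0.821, permutation p = 0.00002 and 0.00005, adjusted p = 0.00018 and 0.0006), and r = 0.818 without the 2 farthest libraries. Tcf7l2 with Ramp3, the closest pair at 3 months, had r = 0.375 at 12 months (rho = 0.312, permutation p = 0.0852 and 0.0884, adjusted p = 0.219 and 0.265) and r = 0.176 without the 2 farthest libraries. Whether the cohorts' correlations differ was not tested.

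**Figure D3:**
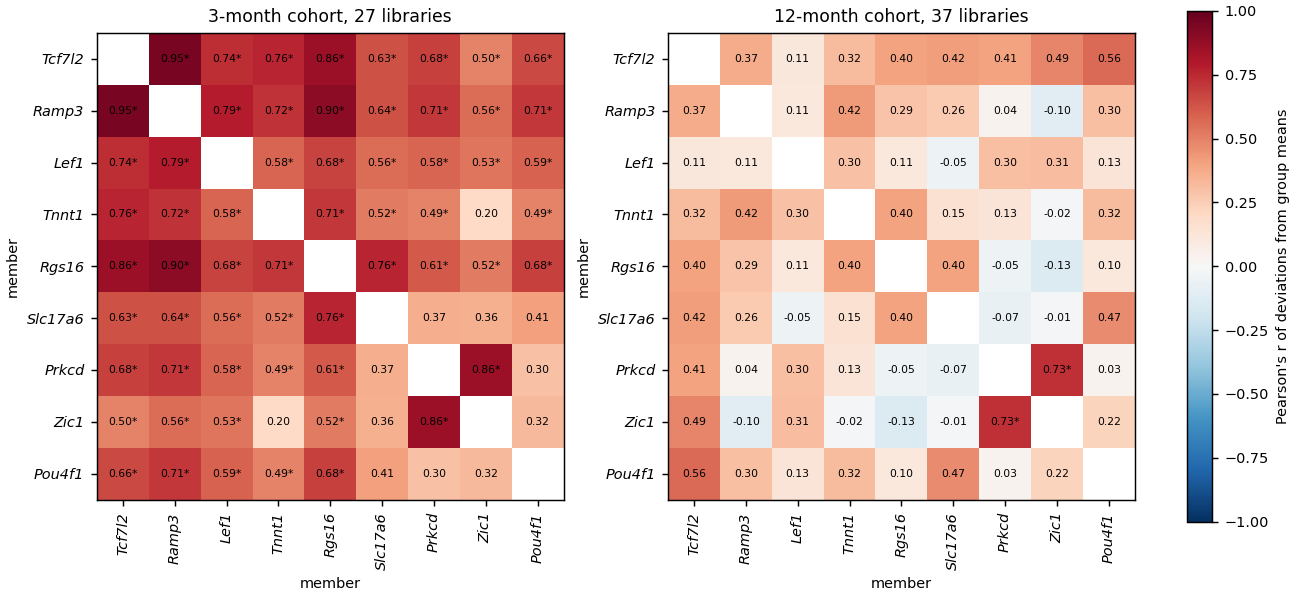
Each cell gives Pearson's r between 2 members over the libraries of the 3-month cohort (left, 27 libraries) or the 12-month cohort (right, 37 libraries), computed on log2 deviations from group means, with an asterisk where the adjusted permutation p is under 0.05. Most cells carry an asterisk on the left, with Tcf7l2 and Ramp3 at 0.95, and only Prkcd with Zic1 carries one on the right.

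Each member was also compared with the mean of 14 other gene lists. Of 126 relations per cohort, adjusted together, 33 passed at 3 months and 12 at 12 months. The share among relations of other genes was not computed, and only some of those that passed are described. Pou4f1 followed the other habenula genes in both cohorts. At 3 months r was 0.973 (rho = 0.72, permutation p = 0.00051 and 0.00324, adjusted p = 0.00584 and 0.0215, 27 libraries), and 0.943 without the habenula-high pair, which were the libraries farthest from the median. At 12 months r was 0.889 (rho = 0.751, permutation p = 0.00002 and 0.00003, adjusted p = 0.00126 and 0.00168, 37 libraries), and 0.833 without the 2 farthest.

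Zic1 followed 13 genes of the striatum and septum, with r = 0.807 at 3 months (rho = 0.746, permutation p = 0.00007 and 0.0002, adjusted p = 0.0011 and 0.0028) and 0.78 without the 2 farthest libraries. At 12 months r was 0.666 (rho = 0.561, permutation p = 0.0001 and 0.00149, adjusted p = 0.0021 and 0.0235), and 0.575 without the 2 farthest. That list holds Zic2 and Zic4, so the relation is partly one between paralogs. It also shares a gene with the choroid plexus list and another with the habenula list. Lef1 followed the 14 genes of the TCF/LEF family and Wnt targets, with r = 0.568 at 3 months (rho = 0.653, permutation p = 0.00285 and 0.001, adjusted p = 0.015 and 0.00936) and r = 0.676 at 12 months (rho = 0.664, permutation p = 0.00003 and 0.00004, adjusted p = 0.00126 and 0.00168). Leaving out the 2 farthest libraries gave 0.661 in each cohort. Slc17a6 followed 12 genes of the subiculum and neocortex, with r = 0.759 at 3 months (rho = 0.74, permutation p = 0.00004 and 0.0001, adjusted p = 0.00101 and 0.00268) and r = 0.552 at 12 months (rho = 0.504, permutation p = 0.00087 and 0.00279, adjusted p = 0.0137 and 0.0327). Without the 2 farthest libraries these were 0.662 and 0.584.

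**Figure D4:**
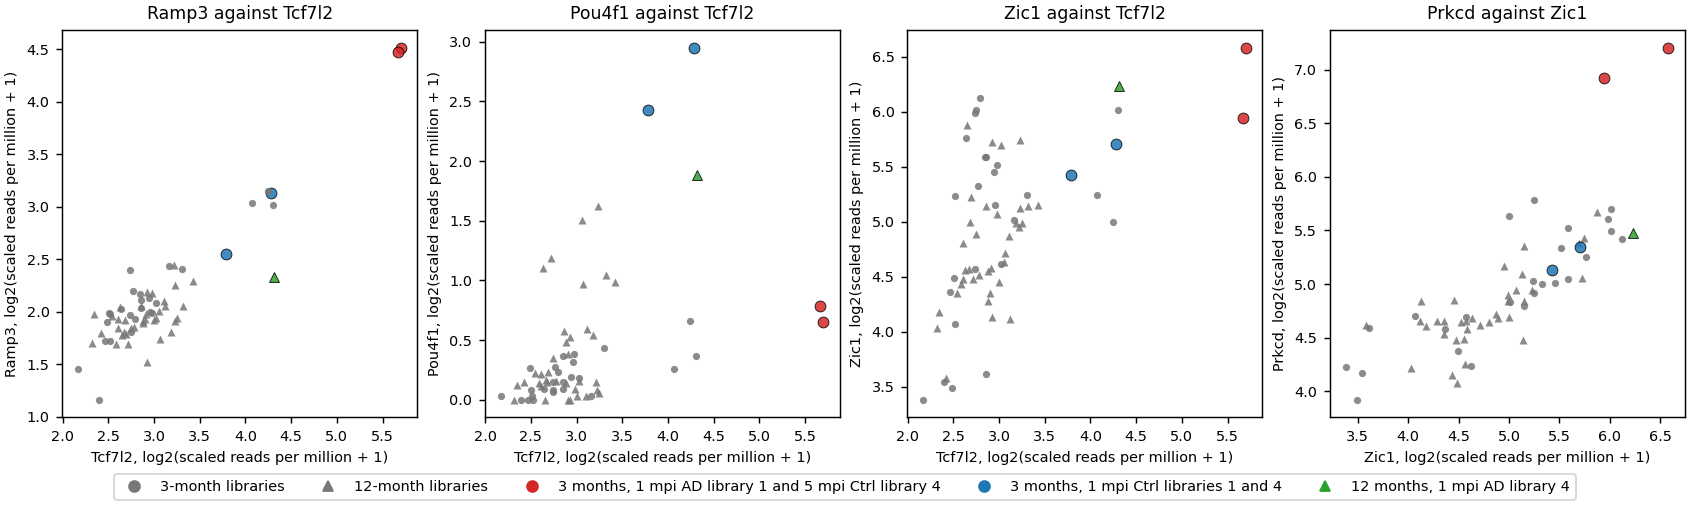
Points are single libraries, and both axes give log2(scaled RPM + 1) of the members named. Ramp3 follows Tcf7l2 up to the thalamus-high pair (red), the highest Pou4f1 levels (blue, 4.39 and 6.72 scaled RPM) lie at moderate Tcf7l2, and Zic1 and Prkcd follow each other in both cohorts.

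The genes most like each member were ranked by the lower of the 2 cohorts' r among 13392 genes. For Tcf7l2 this was Slitrk6 (r = 0.941 over 29 libraries at 3 months and 0.672 over 37 at 12 months). The 29 include the thalamus-high pair, which the correlations above left out, so all 3-month r values here hold that pair. For Pou4f1 it was Gpr151 (0.838 and 0.742), and for Zic1 its paralog Zic4 (0.947 and 0.898), followed by Zic2 and Zic5. For Lef1 it was Axin2, a target of Wnt signalling (0.578 and 0.616), for Ramp3 it was Rab37 (0.958 and 0.599), and for Slc17a6 it was Rims3 (0.943 and 0.705). The gene most like the mean of all 9 members was Slitrk6 (0.939 and 0.618), followed by Synpo2 (0.939 and 0.544) and Hcn4 (0.923 and 0.540), a pacemaker channel of thalamic neurons. These r values are descriptions, since each is the highest of many.

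No member passed the test between AD and Ctrl libraries in either cohort. Differences were tested with limma on log2(value + 1) over all genes that passed a filter on low reads, which all 9 members did, with Benjamini-Hochberg adjustment and a threshold of 0.05. In the mean AD minus Ctrl difference over the 3 times at 3 months, 0 of 9 members and 0% of 19976 genes passed, and 0 members had an unadjusted p under 0.05. Log2 fold changes ran from -0.25 for Pou4f1 to 0.12 for Prkcd, with standard errors of 0.14 to 0.34. The 95% interval for Tcf7l2 was -0.60 to 0.79, so changes within those bounds were not excluded. The interval is not a limit of detection. A fold change on the log2(value + 1) scale understates the change of low genes such as Pou4f1. edgeR's quasi-likelihood test and DESeq2 also passed 0 members.

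At single times of the 3-month cohort limma again passed 0 of 9 members, beside 0% of all genes at 1, 3 and 5 mpi. At 1 mpi Pou4f1 had the lowest fold change (-0.94 ± 0.35 SE, adjusted p = 0.916 by limma), below the Ctrl mean in all 6 AD libraries. Without libraries 1 and 4 of Ctrl this became 0.08 ± 0.15. At 3 mpi all 9 log2 fold changes were above 0, from 0.09 for Lef1 to 0.61 for Tcf7l2. All 17 choroid plexus genes (median 0.28) and all 10 genes of meninges and fibroblasts (median 0.41) were above 0 there too. At 5 mpi 8 of 9 members were below 0, with the lowest in Zic1 (-0.89 ± 0.55 SE), beside all 17 choroid plexus genes (median -1.60) and all 10 of meninges and fibroblasts (median -1.08). Of these other genes 0 passed, and their part in the members' values was not tested. The 5 mpi values turn with library 4 of Ctrl, 1 of the thalamus-high pair. Without it only Lef1 (-0.19) and Zic1 (-0.64) were below 0, and Tcf7l2 stood at 0.34, Tnnt1 at 0.23, Prkcd at 0.18, Slc17a6 at 0.17, Ramp3 at 0.16 and Rgs16 at 0.086.

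In the 12-month cohort limma passed 0 of 9 members in the mean AD minus Ctrl difference, beside 0.00996% of 20084 genes. An unadjusted p under 0.05 was found for 3, namely Pou4f1 (-0.32 ± 0.13 SE, adjusted p = 0.255), Tnnt1 (-0.18 ± 0.07 SE, adjusted p = 0.265) and Prkcd (0.22 ± 0.09 SE, adjusted p = 0.269). The Ctrl mean of the same time was exceeded by 2 of 19 AD libraries in Pou4f1, 4 in Tnnt1 and 13 in Prkcd. edgeR and DESeq2 passed 0 members. At 1, 3 and 5 mpi 0 members passed, beside 0.00498%, 0% and 0.0548% of all genes, with 0, 2 (Tnnt1 and Pou4f1) and 1 (Tcf7l2) members at an unadjusted p under 0.05. At 5 mpi Tcf7l2 held a lowest, median and highest level of 3.99, 5.01 and 6.60 in the Ctrl libraries and 5.35, 6.50 and 7.62 in the AD libraries, and all 7 AD libraries lay above the Ctrl mean (0.33 ± 0.15 SE, adjusted p = 0.559 by limma). The groups overlapped. In the test of whether the AD minus Ctrl difference itself differed between the cohorts, limma passed no member (0 of 9, 0% of 21297 genes, 0 at an unadjusted p under 0.05, adjusted p 0.92 to 1.00), and edgeR and DESeq2 passed 0. Of the 14 genes of the TCF/LEF family and Wnt targets, 0 of 13 tested passed in the mean AD minus Ctrl difference at 3 months (median -0.03) and 0 of 14 at 12 months (median 0.02).

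Tcf7l2 and Prkcd fell between 1 and 5 mpi in the 12-month cohort. Averaged over both extracts, all 9 log2 fold changes were below 0, with a median of -0.35 against -0.001 over all 20084 genes. By limma 2 of 9 passed, beside 1.59% of all genes. Tcf7l2 held a lowest, median and highest level of 5.29, 8.29 and 18.9 in the 11 libraries at 1 mpi and 3.99, 5.43 and 7.62 in the 14 at 5 mpi, and fell by 0.48 ± 0.12 SE (adjusted p = 0.0283). Prkcd held 24.1, 33.2 and 50.1 at 1 mpi and 16.7, 24.2 and 32.2 at 5 mpi, and fell by 0.42 ± 0.11 SE (adjusted p = 0.0463). Both genes overlapped between the times.

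The other members of that comparison did not pass by limma. Beyond Tcf7l2 and Prkcd, edgeR also passed Pou4f1, and DESeq2 passed Pou4f1 and Rgs16. Over all 20084 genes, edgeR passed 290 and DESeq2 497. Pou4f1 had a log2 fold change of -0.54 ± 0.16 SE (adjusted p = 0.086 by limma), and Zic1 of -0.59 ± 0.20 SE (adjusted p = 0.128). Of 19 other thalamus genes 0 passed and 17 were below 0 (median -0.09), and of 19 other habenula genes tested 1 rose, Spon1, and 15 were below 0 (median -0.19). Choroid plexus genes moved with the members, with all 17 below 0 at a median of -0.90 and 0 passing. Their sum ranged from 394.5 to 8694 in the libraries at 1 mpi and from 133 to 7712 at 5 mpi, and their part in the members' change was not tested beyond the covariate. With a choroid plexus covariate Tcf7l2 still passed (-0.44 ± 0.12 SE, adjusted p = 0.0464) and Prkcd did not (-0.39 ± 0.12 SE, adjusted p = 0.071). With no filter on low reads neither passed by limma (adjusted p = 0.0663 for Tcf7l2 and 0.11 for Prkcd). Prkcd lost its call without any of 23 of the 37 libraries, and Tcf7l2 without any of 3, library 3 or 5 of Ctrl at 1 mpi or library 1 of AD at 5 mpi. Without library 4 of AD at 1 mpi Tcf7l2 fell by 0.37 ± 0.09 SE (adjusted p = 0.0298).

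In the 3-month cohort the same comparison passed 0 of 9 members by limma, beside 23.1% of 19976 genes, with 0 at an unadjusted p under 0.05. The log2 fold changes ran from -0.63 ± 0.36 SE for Zic1 to 0.32 ± 0.35 SE for Ramp3, so the members did not share a direction. All 17 choroid plexus genes fell in that comparison (median -2.15). Without all 4 libraries that stand apart, Rgs16 rose by 0.51 ± 0.15 SE (adjusted p = 0.0238 by limma). That was 1 of 9 members, beside 3218 of 19976 genes, a share above that of the members. The 4 libraries were picked by their high levels of members, so this adjusted p is a description and not a test. A test for any difference among the 6 groups passed 0 of 9 members at 3 months by limma, beside 12.6% of genes, with 0 at an unadjusted p under 0.05. In that test edgeR and DESeq2 each passed Pou4f1, beside 2673 and 3928 of 19976 genes. At 12 months it passed 1 member, Prkcd (adjusted p = 0.0484 by limma), beside 2.46% of genes, and Prkcd lost that call without any of 27 of the 37 libraries.

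**Figure D5:**
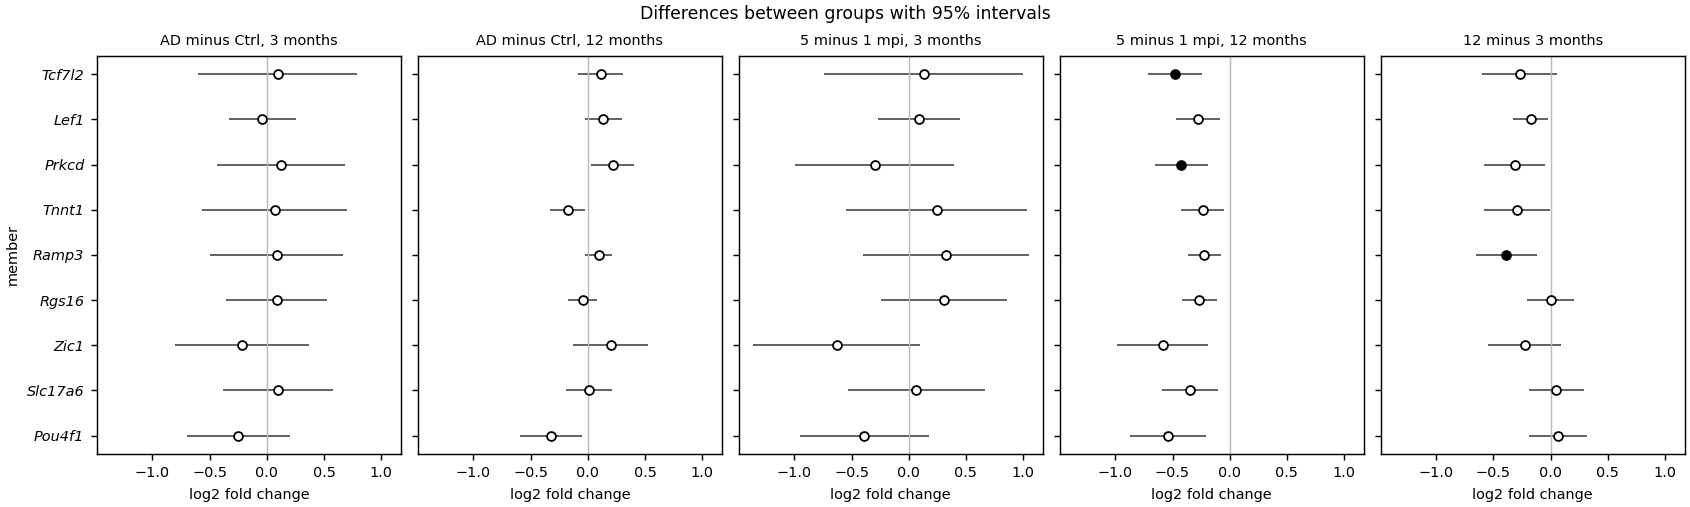
Points give each member's log2 fold change with its 95% interval in 5 comparisons, filled where the limma adjusted p is under 0.05. Filled points are Tcf7l2 and Prkcd in 5 minus 1 mpi at 12 months and Ramp3 in 12 minus 3 months, and intervals at 3 months are wider than those at 12 months.

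Between the cohorts, averaged over the 6 groups of each, 1 of 9 members passed by limma, beside 35.2% of 21297 genes. By limma the share of all genes was thus above that of the members. By edgeR and by DESeq2 5 members passed, namely Tcf7l2, Lef1, Prkcd, Tnnt1 and Ramp3. Beside them 7240 and 7437 of 21297 genes passed, shares below that of the members. Ramp3 was lower at 12 months by limma (-0.39 ± 0.13 SE, adjusted p = 0.0176), with a lowest, median and highest level of 1.24, 3.24 and 21.9 at 3 months and 1.86, 2.81 and 4.43 at 12 months. The range at 12 months lay inside that at 3 months. Without the thalamus-high pair the difference was -0.24 ± 0.08 SE (adjusted p = 0.0225), and without all 5 libraries that stand apart it was -0.16 ± 0.07 SE (adjusted p = 0.0775). Leaving out library 2 of AD at 5 mpi of the 3-month cohort alone gave an adjusted p of 0.0556. Rgs16 turned from -0.00 ± 0.10 SE to 0.17 ± 0.06 SE without the 5 libraries (adjusted p = 0.0338 by limma). Pou4f1 went from 0.06 ± 0.13 SE to 0.22 ± 0.07 SE (adjusted p = 0.0125 by limma). These were 2 of 9 members, beside 7115 of 21297 genes without the 5 libraries, a share above that of the members. Libraries that stand apart were picked by their high levels of members, so adjusted p-values without them are descriptions and not tests. The cohorts are separate tables, and a batch of sequencing cannot be told apart from age.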

How the data were processed

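Poly(A) RNA of 66 hippocampal libraries was analysed from 1 deposited table per cohort. Per the submitters' processing notes, the tools were STAR, Picard and edgeR and the build GRCm38. The sources used here do not give the counting rule or strand. The values the authors deposited are a signal per gene, scaled RPM: reads divided by library size and by 1 factor per library (0.957 to 1.04). Dividing out these steps gave whole read counts for 100% of values (tolerance 0.01 reads). The 2 most alike libraries of a group still differed by more than counting noise (chi-square of 5.09 per degree of freedom).

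Members and lists were chosen with earlier results of these data known. The main test was limma 3.58.1 (R 4.3.3) on log2(value + 1), with a mean for each group, genes kept by edgeR's filterByExpr, and Benjamini-Hochberg adjustment. Cohorts were compared on recovered reads scaled together with TMM. Alternatives were edgeR 4.0.16 and DESeq2 1.42.0 on recovered reads, a pseudocount of 0.1, no filter, a filter at a mean of 1, relative log expression scaling, a choroid plexus covariate, a replicate block and each library left out. Settings without the libraries that stand apart were added after seeing the data. Those libraries were picked by the members' own values, so p-values under these settings are descriptions. The fit was tested on simulated data. Correlations used Python 3.11.15, NumPy 2.4.6 and SciPy 1.17.1. Positions and exon lengths are those of GENCODE vM21.

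The genes named are all 9 members, at most 4 genes per list by mean level, and the genes most like the members. Rora, Synpo2, Plcb4, Gpr151, Chrna3, Tac2, Chrna6 and Spon1 were named after their values were seen. Protein sequences were not analysed here.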

Additional observations from a re-analysis of the deposited data

Results flagged for a closer look

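Within groups of 5 to 7 libraries, 99 sets of 1 member in 1 group were tested for a single library far from the others, and 17 were. The nominal rate is about 1 in 20 for independent sets. These are not independent, since members vary together and 12 of the 17 come from 2 libraries. The share of such sets over all genes was not computed, so whether 17 of 99 is unusual cannot be told. Library 4 of Ctrl at 5 mpi in the 3-month cohort accounted for 7, with Tcf7l2 at 49.8, Lef1 at 13.9, Prkcd at 120.6, Tnnt1 at 13.8, Ramp3 at 21.3, Rgs16 at 32.0 and Pou4f1 at 0.729. Library 1 of AD at 1 mpi accounted for 5, with Tcf7l2 at 51.0, Tnnt1 at 15.75, Ramp3 at 21.9, Rgs16 at 34.1 and Slc17a6 at 104.6. Library 5 of AD at 3 mpi stood apart in Tnnt1 at 6.89, where the other 4 held 0.904 to 1.63. In the 12-month cohort, library 4 of AD at 1 mpi stood apart in Tcf7l2 at 18.9 and Pou4f1 at 2.69, library 6 of AD at 3 mpi in Prkcd at 40.7, and library 1 of Ctrl at 5 mpi in Pou4f1 at 0.44.

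In some groups every AD library lay on the same side of the Ctrl mean in Pou4f1, and the side differed between groups, though no AD minus Ctrl difference of Pou4f1 passed. All 6 AD libraries at 1 mpi of the 3-month cohort lay below their Ctrl mean (log2 fold change -0.94, or 0.08 without the habenula-high pair of Ctrl libraries) and all 5 at 3 mpi lay above it (0.11). All 6 AD libraries at 3 mpi of the 12-month cohort lay below it (-0.48). These differences between groups were not tested.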

How the results depend on the processing

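Groups of 3 to 7 libraries and the wide spread of the members at 3 months limit what could be detected, and Pou4f1 rests on few reads outside its high libraries. In all AD minus Ctrl comparisons the number of members passing was 0 under each alternative that gave a value. DESeq2 gave no adjusted p for any member at 1 mpi of the 12-month cohort.

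For 5 minus 1 mpi at 12 months, 2 members passed, against 0 with no filter, 3 by edgeR, 4 by DESeq2 and 1 with the replicate block. Leaving out single libraries gave 0 to 4. Of 20084 genes tested 319 passed, against 290 by edgeR, 497 by DESeq2 and 248 with the block, and with no filter 129 genes passed. For any difference among the groups at 12 months, 1 passed, against 0 with no filter, 0 with the choroid plexus covariate, and 3 by edgeR and by DESeq2. Single libraries left out gave 0 to 2. Over all genes 494 passed, against 321 with no filter, 534 with the covariate, 532 by edgeR and 1227 by DESeq2. At 3 months the test for any difference gave 0 members, against 1 by edgeR and by DESeq2. Over all 19976 genes it gave 2516, against 2673 by edgeR and 3928 by DESeq2. There 5 minus 1 mpi gave 0 members and 4611 genes, against 1 member and 3218 genes without all 4 libraries that stand apart. Between cohorts 1 member passed, against 5 by edgeR and 5 by DESeq2 and 2 without all 5 libraries that stand apart (Rgs16 and Pou4f1, both higher), with 0 to 3 over single libraries left out. Of 21297 genes 7490 passed, against 7240 by edgeR, 7437 by DESeq2 and 7115 without the 5 libraries. Replicate numbers did not pair the samples: in 0 of 30 pairs of groups did all same-numbered libraries correlate above 0.1 (range -0.458 to 0.635). The replicate block changed no other count of members.

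Of member and list relations at 3 months, 33 passed, against 73 with the thalamus-high pair and 22 to 60 over single libraries left out, the highest without library 5 of AD at 3 mpi. With group means kept, 12-month pairs rose from 1 to 20 and list relations from 12 to 39. Leaving out single libraries gave 1 to 3 pairs.

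Signs that turned belong to members that had not passed. Pou4f1 turned to 0.093 and 0.109 in the mean AD minus Ctrl difference at 3 months without the habenula-high pair and without all 4 libraries, and to 0.0803 at 1 mpi without that pair. In 5 minus 1 mpi at 3 months it turned to 0.12 and 0.10 under those settings, and Slc17a6 to -0.27 with the choroid plexus covariate. Without the thalamus-high pair, AD minus Ctrl at 1 mpi turned to -0.33 for Tnnt1 and -0.26 for Rgs16. Over single libraries left out these ran from -0.33 to 0.31 and from -0.26 to 0.23. At 12 months and 1 mpi the ranges were -0.11 to 0.22 for Tcf7l2 and -0.10 to 0.20 for Slc17a6, the lowest without library 4 of AD. Between cohorts Rgs16 turned to 0.11 without the thalamus-high pair and 0.17 without all 5 libraries. The causes were not tested.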
